A study of Mus musculus with 16 samples.

Results

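The 10 Wnt ligand genes Wnt1, Wnt2, Wnt3, Wnt3a, Wnt5a, Wnt6, Wnt7b, Wnt9b, Wnt10a and Wnt10b were taken by name, and every consensus peak of the histone mark H3K27me3 that overlapped the span of one of them, widened by 2000 bp on either side, was assigned to it. They were 10 of 20257 genes with a peak, and they held 19 of the 102957 consensus peaks. Wnt3, Wnt3a and Wnt9b lie on chromosome 11 and hold 5 of the peaks; the other 7 genes lie on other chromosomes and hold 14. The 3 genes on chromosome 11 are set apart in the comparisons between lines, because input DNA of this chromosome differed between the lines.

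Wnt proteins are secreted ligands that carry a lipid. Porcupine (Porcn) attaches the lipid, Wntless (Wls) carries the ligand to the cell surface, and Frizzled receptors with Lrp5 or Lrp6 receive it, after which β-catenin escapes destruction and acts on target genes with Tcf and Lef proteins. H3K27me3, trimethylated lysine 27 of histone H3, is placed by Polycomb repressive complex 2 and in embryonic stem cells covers CpG-rich promoters of many silent developmental genes, Wnt ligands among them.

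Mouse embryonic stem cells were profiled by ChIP-seq, with 8 libraries of H3K27me3 and 8 of input. The 4 lines were each seen at 48 h and at 0 h of doxycycline: Firre KO with the Firre transgene, the line labelled Firre KO control, WT with the Firre transgene, and WT control. Firre is a long noncoding RNA encoded on the X chromosome, and the labels give doxycycline as the treatment of every library, controls and 0 h included. All lines grew on gelatin in serum medium with LIF, the MEK inhibitor PD0325901 and the GSK3 inhibitor CHIR99021, which stabilises β-catenin downstream of the ligands. Each condition had 1 H3K27me3 library and 1 input library, and the labels name no separate cultures, so p-values measure only the spread between these libraries.

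The H3K27me3 libraries held between 10380781 and 14787938 counts in consensus peaks, and the input libraries between 3340654 and 6244333. At the 1 peak over Firre, input relative to the rest of the X chromosome was 10.7 in the KO transgene line, 11.1 in the line labelled KO control, 14.9 in the WT transgene line and 0.694 in the WT control line, on 136, 110, 193 and 9 input counts over both times. The line labelled KO control therefore held Firre sequence at a level close to that of the transgene lines, and it is named by its label throughout. H3K27me3 counts at this peak at 48 h and 0 h were 47 and 172 in the KO transgene line. They were 57 and 263 in the WT transgene line. The line labelled KO control had 177 and 164, and the WT control line 0 and 1. Of input counts, chromosome 11 took 9.96% and 9.98% at 48 h and 0 h for the KO transgene line and 11.1% at both times for the line labelled KO control. It took 8.25% and 8.26% in the WT transgene line and 8.42% and 8.46% in the WT control line. ChIP cannot show expression. Of 12 pluripotency genes 1 had a peak (Esrrb), against 6 of 6 primitive endoderm genes and 5 of 6 fibroblast genes, and the share of all genes with a peak is not given here. A peak alone does not show how strong the mark is. Tested against input, gene regions were called higher or lower than the average consensus peak. On this scale edgeR called Esrrb higher, 5 primitive endoderm genes higher and 1 lower (Dab2). Of the 5 fibroblast genes 4 were called higher, all but Col1a2. Of all gene regions, 28.7% were called higher and 37.5% lower.

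Start sites were first looked at as sequence, because this mark is known to gather at CpG-rich promoters. RefSeq promoters of the build GRCm38.p6, from 250 bases before to 50 bases after the start, were found for 7 of the 10 genes, and Wnt5a, Wnt7b and Wnt10a had no entry. All 7 starts lay inside a consensus peak, where 30.1% of all start sites did. The rule partly fixed this, since it assigned peaks within 2000 bp of the gene. The 7 promoters held between 18 and 45 CG dinucleotides, with a median of 27, against a median of 7 over 32851 promoters of the same length and likewise of 7 over those whose start lies in a consensus peak. The CG dinucleotide reads the same on both strands, and 94.6% of all promoters held at least 1. Wnt3a had the most, 45, a count reached by 1.93% of all promoters, and Wnt10b the fewest, 18, reached by 29.7%. The promoters of 3 genes are shown because they span the range of H3K27me3 described below: Wnt1 (26 CG, chr15:98789607-98789906, plus strand) and Wnt3 (24 CG, chr11:103773925-103774224, plus strand) are among the highest in the mark, and Wnt2 (27 CG, chr6:18030396-18030695, minus strand) is the lowest. Every CG is in capitals, and each is written 5′ to 3′ along the strand of its gene.
Wnt1: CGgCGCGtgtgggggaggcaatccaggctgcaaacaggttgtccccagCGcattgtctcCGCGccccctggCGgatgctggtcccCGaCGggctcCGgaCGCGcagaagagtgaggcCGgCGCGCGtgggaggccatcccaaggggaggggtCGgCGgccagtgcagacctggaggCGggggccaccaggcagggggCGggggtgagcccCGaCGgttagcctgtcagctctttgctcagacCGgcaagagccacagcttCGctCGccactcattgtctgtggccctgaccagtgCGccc
Wnt3: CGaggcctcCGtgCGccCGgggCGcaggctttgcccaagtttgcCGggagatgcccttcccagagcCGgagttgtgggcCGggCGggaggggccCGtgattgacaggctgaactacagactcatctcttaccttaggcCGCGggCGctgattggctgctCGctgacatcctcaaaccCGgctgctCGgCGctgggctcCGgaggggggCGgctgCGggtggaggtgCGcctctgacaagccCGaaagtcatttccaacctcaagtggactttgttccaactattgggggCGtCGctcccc
Wnt2: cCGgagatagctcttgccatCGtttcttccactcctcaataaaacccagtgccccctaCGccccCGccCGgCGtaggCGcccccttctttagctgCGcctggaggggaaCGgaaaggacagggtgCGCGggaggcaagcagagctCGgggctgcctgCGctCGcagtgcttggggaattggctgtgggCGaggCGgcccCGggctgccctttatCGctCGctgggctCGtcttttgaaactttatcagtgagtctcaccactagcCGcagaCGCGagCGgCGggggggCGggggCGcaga
The CG count did not follow the mark among these: Wnt2, with the least H3K27me3 of the 10 genes, held 27 CG, more than Wnt1 or Wnt3. A CG count in this window is a description of the letters and names no factor.

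The peaks over these genes were wide. Their median width was 19.5 kb, against 2.36 kb over all consensus peaks, and 9 of 19 were at least 20 kb wide, against 3.45% of all peaks. A wide peak is more likely than a narrow one to overlap a gene, so the rule partly set this contrast. The peak caller's own fold enrichment, the authors' value per peak, had a median of 2.55 at the 19 peaks and 1.53 over all. Several neighbouring ligand genes share a domain. A peak of 54.8 kb on chromosome 11 (chr11:103761833-103816674) overlapped both Wnt3 and Wnt9b, and a peak of 27.8 kb on chromosome 1 (chr1:74780348-74808174) overlapped both Wnt6 and Wnt10a, so their values are not independent. The widest Wnt3a peak (53.8 kb, chr11:59283042-59336809) reached over Wnt9a, a further ligand gene. Wnt10b and Wnt1 lie next to each other on chromosome 15, each under a peak of its own, of 15.2 kb (chr15:98767557-98782752) and 24.5 kb (chr15:98785621-98810157). Positions are as deposited in mm10, and the table does not say whether starts count from 0 or 1.

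**Figure D1:**
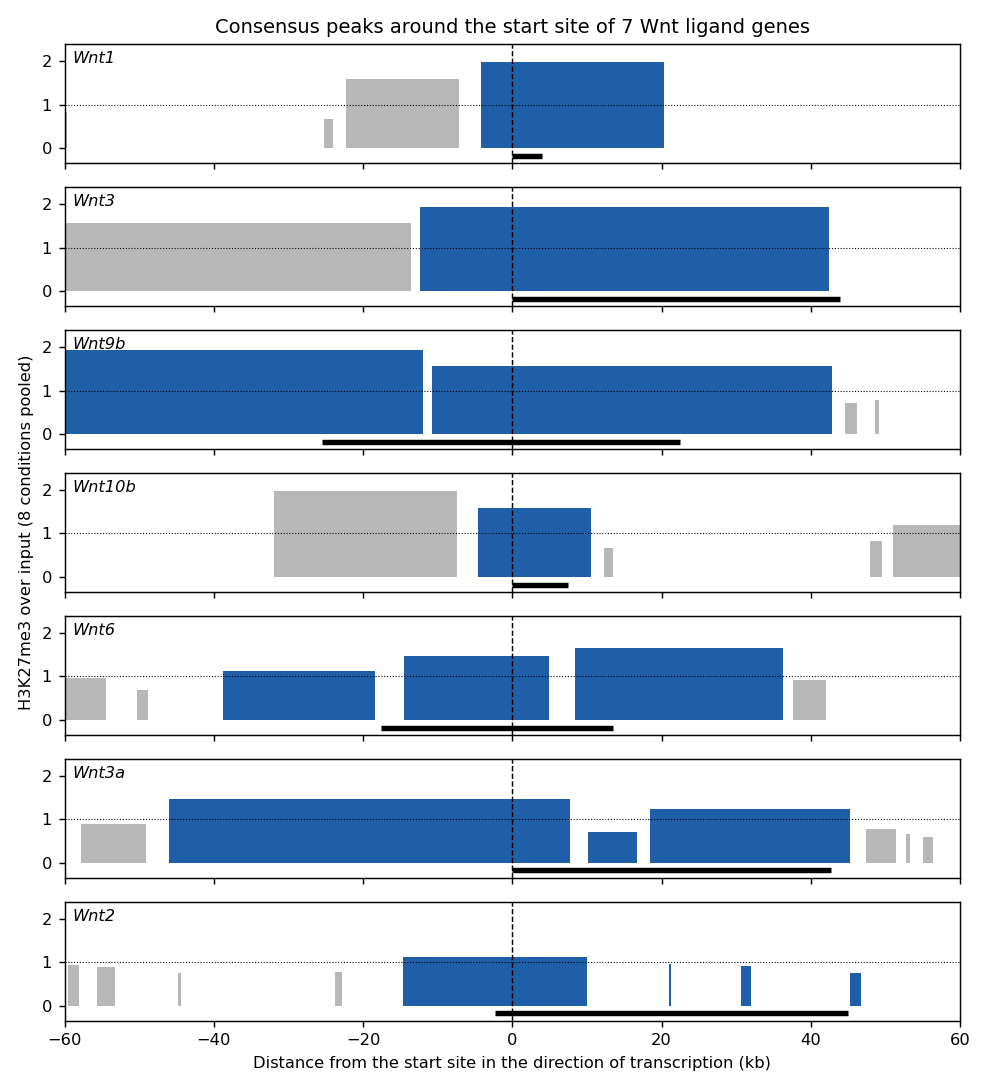
Consensus peaks within 60 kb of the start site of the 7 Wnt ligand genes with a RefSeq start, drawn by distance in kb in the direction of transcription (x axis) and H3K27me3 over input with the 8 conditions pooled (y axis). Blue bars are peaks assigned to the gene, grey bars other peaks, the black line the gene span and the dotted line a ratio of 1; every start (dashed line) falls inside a blue bar, and the Wnt2 bar at the start reaches 1.12 where the Wnt1 bar reaches 1.98.

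H3K27me3 over input is given as the share of H3K27me3 counts that fell in a gene's peaks divided by the share of input counts of the same condition, so that 1 is the average over all consensus peaks. Throughout, called higher or lower than input means above or below that average. A peak called lower is thus weaker than the average peak and is not shown to lack the mark. All 10 genes were higher in H3K27me3 than in input (edgeR quasi-likelihood test, adjusted p between 7.62e-38 for Wnt9b and 0.00479 for Wnt2), where 28.7% of 18361 gene regions were called higher and 37.5% lower. The median ratio of the 10 was 1.62 ± 0.122 over the 8 conditions (SD, n = 8), against 0.976 ± 0.00614 for the median of all 18362 gene regions. The mean ratio of 6 genes exceeded 1.6 and that of Wnt2 was close to the average peak.

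Among ligands of early axis formation, Wnt3 starts gastrulation in the mouse embryo and Wnt3a maintains the mesoderm of its tail bud. At Wnt3 the ratio was 1.92 and 1.93 in the KO transgene line at 48 h and 0 h, 2.11 and 2.13 for the line labelled KO control, 2.00 and 1.82 in the WT transgene line, and 1.67 and 1.91 in the WT control line. Its mean was 1.94 ± 0.150 (SD, n = 8), higher than 99.3% of gene regions by the pooled ratio. Wnt3a, with 3 peaks and 87.2 kb of peak in all, had 1.35 and 1.38 in the KO transgene line, 1.33 and 1.49 for the line labelled KO control, 1.29 and 1.27 in the WT transgene line, and 1.25 and 1.261 in the WT control line. Its mean was 1.33 ± 0.0817, and its 3 peaks differed. The one over the start, shared with Wnt9a, had 1.46 ± 0.0815 and the one at the far end 1.24 ± 0.0903. The next peak inside the gene had 0.703 ± 0.143 (SD, n = 8 each). This middle peak was called lower than the average peak (edgeR, adjusted p = 2.12e-11), while the peak caller's fold there was 1.68. The KO ratios of Wnt3a lay above all 4 WT ratios, between 1.33 and 1.49 against between 1.25 and 1.29, while those of Wnt3 overlapped between KO and WT lines.

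Wnt1, which patterns the midbrain and hindbrain, had a ratio of 1.70 and 2.08 in the KO transgene line at 48 h and 0 h, 2.02 and 2.23 for the line labelled KO control, 1.98 and 2.12 in the WT transgene line, and 1.95 and 1.87 in the WT control line. Its mean was 1.99 ± 0.160 (SD, n = 8). The lowest value came from the KO transgene line at 48 h and the highest from the line labelled KO control at 0 h, and all 8 lay well above 1. Wnt10b, its neighbour, promotes bone formation and holds back fat cell formation, and its ratio ran between 1.36 and 1.88 with a median of 1.63. Wnt10b was the most variable of the 10, at 1.61 ± 0.205, with both WT control values (1.36 and 1.37) at the bottom and both WT transgene values (1.83 and 1.88) at the top; it also had the fewest input counts, between 109 and 233 a library. Its peak extended 4.60 kb upstream and 10.6 kb downstream of the start.

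Wnt5a, which acts largely without β-catenin and directs the elongation of limbs and the body axis, had the highest mean, 2.02 ± 0.149 (SD, n = 8). Its ratio was 2.01 and 2.05 in the KO transgene line at 48 h and 0 h, 2.06 and 2.09 for the line labelled KO control, 2.18 and 2.10 in the WT transgene line, and 1.68 and 2.03 in the WT control line. The WT control library at 48 h lay apart at 1.68, and the other 7 lay between 2.01 and 2.18. A single peak of 29.2 kb (chr14:28498711-28527961) covered the whole gene, and the 7 other peaks within 50 kb had ratios between 0.733 and 1.03.

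Wnt9b and Wnt7b act in the forming kidney, where Wnt9b from the ureteric bud induces tubules; Wnt7b also acts in the lung. Wnt9b had a mean of 1.75 ± 0.0834 (SD, n = 8), with 7 values between 1.71 and 1.82 and the WT control library at 48 h at 1.56. The peak over its own start had a mean of 1.56 ± 0.0820, lower than the peak it shares with Wnt3 (1.94 ± 0.150). Wnt7b had a mean of 1.46 ± 0.104 and ran between 1.28 and 1.61, but this average hides a contrast within the gene. Of its 4 peaks, one at an end of the gene (19.5 kb, chr15:85572753-85592250) had 1.92 ± 0.147 and one at the other end 1.41 ± 0.198. The 2 peaks between them had 1.02 ± 0.141 and 1.04 ± 0.104. They were not called higher than the average peak (edgeR, adjusted p = 0.954 and 0.557), and the peak caller's folds there were 1.71 and 1.85.

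Wnt6 and Wnt10a are ligands of epithelia, and Wnt10a is needed for teeth and hair. Wnt10a is covered by the peak shared with Wnt6 alone and had a mean ratio of 1.66 ± 0.158 (SD, n = 8), with a lowest value of 1.48, a median of 1.61 and a highest value of 1.90. Wnt6 holds 2 further peaks, so that its mean was lower, 1.45 ± 0.0780. Its peaks had 1.13 ± 0.0540, 1.48 ± 0.101 and 1.66 ± 0.158 in the direction of Wnt10a. The first of these lies outside the Wnt6 span, within 2000 bp of it, and is also assigned to Cyp27a1 and Prkag3. Outside this block, a narrow peak of 3.13 kb over Cdk5r2 and Gm16582 (chr1:74854961-74858094) reached 2.27, and the other 5 peaks within 50 kb were below 1.

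Wnt2, which with Wnt2b specifies the lung in the mouse, was the exception in level. Its ratio was 1.19 and 1.06 in the KO transgene line at 48 h and 0 h, 1.01 and 1.16 for the line labelled KO control, 1.09 and 1.08 in the WT transgene line, and 1.05 and 1.06 in the WT control line. Its mean was 1.09 ± 0.0591 (SD, n = 8), and 72.0% of gene regions had a lower pooled ratio. The 24.7 kb peak over its start (chr6:18020434-18045093) had 1.13 ± 0.0871 and was called higher than input (edgeR, adjusted p = 0.000361). Of its 3 small peaks, the one beyond the far end had 0.761 ± 0.100 and the other 2 were not called. The one beyond the far end was called lower than the average peak (edgeR, adjusted p = 0.0199), with a peak caller's fold of 1.44. In all, 13 of the 19 peaks were called higher and 2 lower than input, where 7.76% of all peaks were called higher and 36.0% lower.

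**Figure D2:**
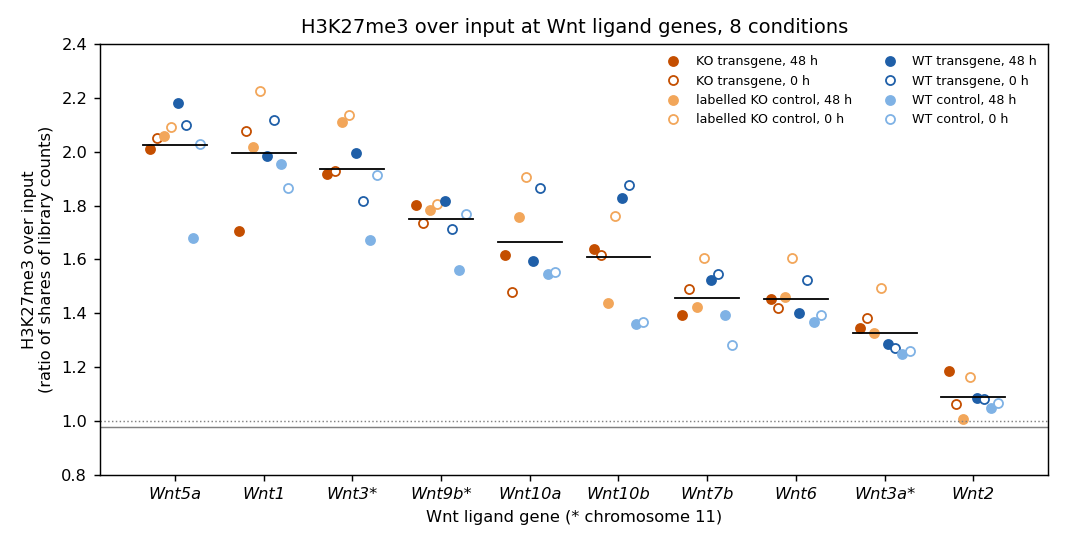
H3K27me3 over input at the 10 Wnt ligand genes (x axis, ordered by mean; * marks chromosome 11) as a ratio of shares of library counts (y axis) in the 8 conditions, with a filled circle for 48 h and an open circle for 0 h. Short black lines are the means over 8 conditions, the dotted line is 1 and the grey line is the mean median of all gene regions, 0.976; Wnt5a, Wnt1 and Wnt3 lie highest and Wnt2 lies near the lines.

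The order of the means had 3 clear steps among its 9 neighbouring pairs. Wnt3 exceeded Wnt9b, Wnt6 exceeded Wnt3a, and Wnt3a exceeded Wnt2 in 8 of 8 conditions, with gaps of 0.187, 0.126 and 0.240. The step between Wnt3 and Wnt9b says only that the peak they share exceeds the further peak of Wnt9b. The other 6 pairs differed by less than the larger SD of the pair; Wnt5a was higher than Wnt1 in 4 of 8 conditions, and Wnt7b and Wnt6 differed by 0.00431. Over the 8 conditions the log2 ratios most alike between genes without a shared peak were those of Wnt5a and Wnt9b (Pearson r = 0.892) and of Wnt7b and Wnt10b (0.832). These points share their libraries, and each line gives a pair of them, so the values are descriptions.

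Outside these peaks the ratios were mostly lower. In 50 kb on either side of the 7 blocks that the peaks form, the median ratio of the other peaks was between 0.727 and 0.907 at 6 blocks and 1.23 at Wnt7b, where 4 of 6 flanking peaks were above 1. At the block of Wnt9b and Wnt3, which is 109.7 kb long and covered by peaks over 98.9% of its length, 3 of 4 flanking peaks were below 1.

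The rest of the pathway was read from lists of genes by role. The lists do not hold every family member (Wnt8a and Fzd8 are not listed) and were chosen with earlier results of these data known. Of all gene regions, 28.7% were called higher than input and 37.5% lower. All 8 other listed ligand genes (Wnt2b, Wnt4, Wnt5b, Wnt7a, Wnt8b, Wnt9a, Wnt11 and Wnt16) had a peak and were called higher than input by edgeR, with pooled ratios between 1.04 at Wnt5b and 1.95 at Wnt2b. Of 17 receptor and co-receptor genes 11 had a peak; 6 were called higher and 2 lower, with a highest pooled ratio of 1.42 at the receptor gene Fzd2 and a lowest of 0.660 at Lrp6. Of 16 genes of secreted inhibitors and agonists 14 had a peak; 11 were called higher and 2 lower, between 0.754 at Dkk4 and 1.60 at Sfrp5. Both processing genes had a peak, with Porcn at 1.39 (called higher) and Wls at 0.887 (called lower). The intracellular pathway had a peak at 2 of 10 genes, Tcf7l1 (0.980) and Tcf7l2 (0.870, called lower). All 10 target genes had a peak, 7 were called higher and 1 lower, and they ran between 0.918 at Rnf43 and 1.79 at Cdx2. The peak of Cdx2 is shared with Pdx1, Urad and Gm35112. Median pooled ratios were 1.62 for the 10 genes, 1.41 for the other ligands, 1.10 for receptors, 1.19 for secreted modulators and 1.16 for targets, against 0.952 over all gene regions.

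Time on doxycycline was compared as 48 h against 0 h within each of the 4 lines. None of the 10 genes was called (edgeR, 0 of 10), where 2.1% of gene regions were called, 1.66% lower and 0.447% higher. DESeq2 called 0 of the 8 genes to which it gave an adjusted p (not Wnt2 and Wnt10b), and limma-voom called 0 of 10. Of the 10 genes, 6 had an unadjusted edgeR p under 0.05. The 10 log2 differences lay between -0.09 ± 0.03 at Wnt10a (adjusted p = 0.0715) and -0.01 ± 0.04 at Wnt2 (adjusted p = 0.944; SE of the fit), with a median of -0.04, against a median of -0.00061 over all regions, of which 50.4% were below 0. All 10 were below 0, but this depended on the scaling: with an offset per library that follows the ratio over input, 4 were above 0 (Wnt1 0.01, Wnt3 0.03, Wnt5a 0.01 and Wnt9b 0.04), Wnt10a was at -0.04 and 0 of 10 were called. Without either library of the line labelled KO control, Wnt2 was at 0.03. At Wnt10a the share of H3K27me3 counts at 48 h over 0 h was 0.960 in the KO transgene line, 0.935 in the line labelled KO control, 0.923 in the WT transgene line and 0.936 in the WT control line. Its 95% exact binomial interval excluded 1 in the WT transgene line, between 0.856 and 0.996, and included 1 in the other 3 lines. Such intervals cover counting error only.

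Before any such offset, the share at 48 h was below that at 0 h in all 4 lines at Wnt3, Wnt3a, Wnt5a, Wnt6, Wnt10a and Wnt10b, in 3 lines at Wnt1, Wnt7b and Wnt9b, and in 1 line at Wnt2. In input, the 10 differences lay between -0.04 and 0.05 and 0 of 10 were called, as were 0.0% of regions. The strongest peaks moved with time too. At the 1030 consensus peaks with the highest ratio (the top 1%), the share of H3K27me3 counts at 48 h over 0 h was 0.963 in the KO transgene line, 0.952 in the line labelled KO control, 0.964 in the WT transgene line and 0.956 in the WT control line. A weaker pulldown and less of the mark at the strongest peaks cannot be told apart here. Of single peaks 0 of 19 were called for time (edgeR), where 0.109% of all peaks were called; 6 of 19 had an unadjusted p under 0.05. Of the pathway lists, Wnt4 (-0.12 ± 0.03, adjusted p = 0.0206), Fzd1 (-0.16 ± 0.05, adjusted p = 0.0365) and the Rspo receptor gene Lgr5 (-0.07 ± 0.02, adjusted p = 0.0339) were called lower at 48 h by edgeR and none was called higher.

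**Figure D3:**
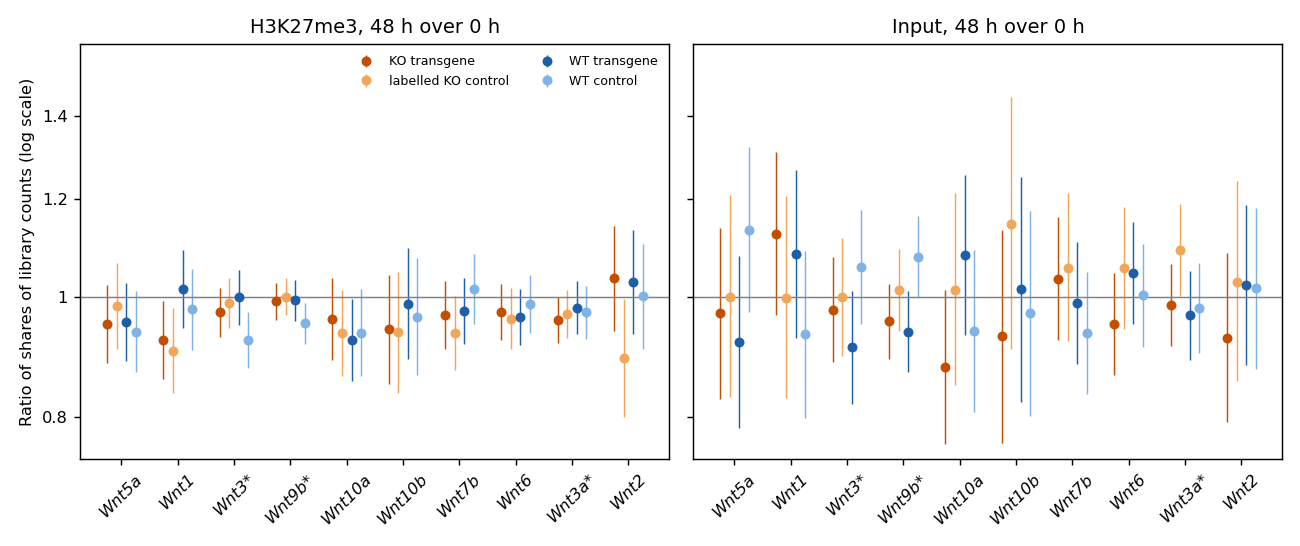
Share of library counts at 48 h over that at 0 h at the 10 Wnt ligand genes (x axis; * marks chromosome 11) in the 4 lines, on a log y axis, for H3K27me3 on the left and input on the right; bars are 95% exact binomial intervals. The H3K27me3 points lie between 0.892 and 1.04 and mostly below 1, and the input points scatter on both sides of 1.

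Induction of Firre was tested as the change over time in the transgene lines minus that in the control lines. The edgeR test called 0 of 10 genes, where 0.049% of gene regions were called, and 0 of 10 had an unadjusted p under 0.05; DESeq2 and limma-voom called 0. The differences in change lay between -0.01 ± 0.06 at Wnt5a and 0.12 ± 0.07 at Wnt2, with a median of 0.01. At Wnt3 the 48 h over 0 h share was 0.971 in the KO transgene line and 0.999 in the WT transgene line, against 0.988 in the line labelled KO control and 0.923 in the WT control line. The fit gave Wnt3 a difference of 0.04 ± 0.04 (adjusted p = 0.986). At Wnt2 the share was 1.04 in the KO transgene line and 1.03 in the WT transgene line, against 0.892 in the line labelled KO control and 1.00 in the WT control line. Here the 2 transgene lines lay above both control lines, but the difference in the fit was within 2 SE (adjusted p = 0.953). With SEs between 0.03 and 0.08, differences of the size seen at these genes could not be told from 0. Of single peaks 0 of 19 were called (edgeR), where 0.00583% of all peaks were called, and 0 of 19 had an unadjusted p under 0.05. This model leaves 2 residual degrees of freedom per region, and its p-values rest mainly on a spread pooled over all regions (prior degrees of freedom 196).

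The KO lines were compared with the WT lines at both times. The 4 libraries of each background are 2 lines seen at 2 times, which the model treats as independent, so its p-values are too small where lines and not libraries are the unit. Of the 10 genes 3 were called, all higher in KO (edgeR), where 9.54% of gene regions were called higher and 3.68% lower, and these 3 are the genes on chromosome 11. Wnt3 had 261 and 269 CPM (counts in the gene's peaks, with library totals scaled to the same size) at 48 h and 0 h for the KO transgene line and 318 and 322 CPM for the line labelled KO control, against 223 CPM at both times in the WT transgene line and 201 and 217 CPM in the WT control line. It was 1.36-fold higher in KO (log2 0.44 ± 0.05, adjusted p = 1.69e-08). Wnt3a averaged 332 ± 33.1 CPM in KO libraries and 238 ± 4.41 CPM in WT libraries (SD, n = 4 libraries of 2 lines each), 1.40-fold higher (log2 0.49 ± 0.04, adjusted p = 2.31e-10). Wnt9b averaged 515 ± 44.9 CPM in KO libraries and 390 ± 13.2 CPM in WT libraries (SD, n = 4 libraries of 2 lines each), 1.33-fold higher (log2 0.41 ± 0.04, adjusted p = 2.94e-09). At each of the 3 genes the lowest KO library lay above the highest WT library, and the libraries of the line labelled KO control were the highest.

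Input counts of the same 3 regions moved the same way. In input, Wnt3 was higher in KO by 0.31 ± 0.04, Wnt3a by 0.36 ± 0.04 and Wnt9b by 0.35 ± 0.03 on the log2 scale, with adjusted p = 9.81e-10, 3.53e-15 and 7.93e-16 (edgeR), where 5.48% of regions were called higher in input. Set against input of the same condition, 0 of 10 genes were called (edgeR), where 1.21% of regions were called; 2 of 10 had an unadjusted p under 0.05 and DESeq2 called 0. The remaining differences were 0.13 ± 0.05 at Wnt3 (adjusted p = 0.178), 0.12 ± 0.04 at Wnt3a (adjusted p = 0.0903) and 0.06 ± 0.04 at Wnt9b (adjusted p = 0.554). Without the WT transgene library at 48 h and its input, Wnt3 was called at 0.20 (adjusted p = 0.0223), with adjusted p between 0.0223 and 1 over its alternatives. With the input count as an offset in the H3K27me3 model, 0 of 10 were called.

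Single peaks showed the same split by chromosome. All 5 peaks on chromosome 11 were called higher in KO and 0 of the 14 others were called (edgeR), where 3.8% of all peaks were called higher. The largest differences were inside Wnt3a, at 0.61 ± 0.09 in the weak middle peak and 0.59 ± 0.05 in the peak at the far end, against 0.46 ± 0.04 in the peak over the start. The peak shared by Wnt3 and Wnt9b differed by 0.46 ± 0.04 and the peak of Wnt9b alone by 0.38 ± 0.04. Relative to input, 0 of 19 peaks were called (edgeR), where 0.07% of all peaks were called, 3 of the 19 with an unadjusted p under 0.05.

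Of the 7 genes on other chromosomes 0 were called (edgeR, DESeq2 and limma-voom), 2 of them with an unadjusted edgeR p under 0.05. Their log2 differences ran between -0.08 ± 0.04 at Wnt2 (adjusted p = 0.258) and 0.11 ± 0.04 at Wnt10a (adjusted p = 0.113, edgeR). At Wnt10a the pairs of lines did not go together: the share was 0.987 and 0.950 at 48 h and 0 h for the KO transgene over the WT transgene line, but 1.19 at both times for the line labelled KO control over the WT control line. Wnt10a was called without any one of 3 libraries, at 0.15 without the WT transgene library at 48 h, 0.16 without that at 0 h and 0.16 without the KO transgene library at 0 h, with adjusted p between 0.00117 and 0.912 over its alternatives. The top 1% of peaks moved likewise, with an H3K27me3 share of 0.995 and 0.996 in the KO transgene over the WT transgene line and of 1.09 and 1.10 for the line labelled KO control over the WT control line. With an offset per library that follows the ratio over input, the Wnt10a difference was 0.08 ± 0.04 and was not called (edgeR, adjusted p = 0.169). At Wnt5a the fitted difference was 0.02 ± 0.04. Beyond the 10, Wnt9a, which lies on chromosome 11 and shares a peak with Wnt3a, was higher in KO by 0.44 ± 0.04 (adjusted p = 8.09e-10) and Wnt11, on chromosome 7, by 0.12 ± 0.03 (adjusted p = 0.0133). Among 10 Wnt target genes 3 were called higher in KO, namely Axin2, Rnf43 and Znrf3, all on chromosome 11, and Lef1, on chromosome 3, was lower (-0.18 ± 0.03, adjusted p = 0.000208). Calls off chromosome 11 were also made in other lists: Tcf7l1 (0.46 ± 0.10), Tcf7l2 (0.19 ± 0.06), Fzd7 (0.18 ± 0.06) and Ror2 (0.17 ± 0.05) were higher in KO, and Ror1 (-0.11 ± 0.03) and Sfrp2 (-0.12 ± 0.04) lower. Relative to input, Lef1 alone of the listed pathway genes was called (edgeR, -0.15 ± 0.04, adjusted p = 0.0279).

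**Figure D4:**
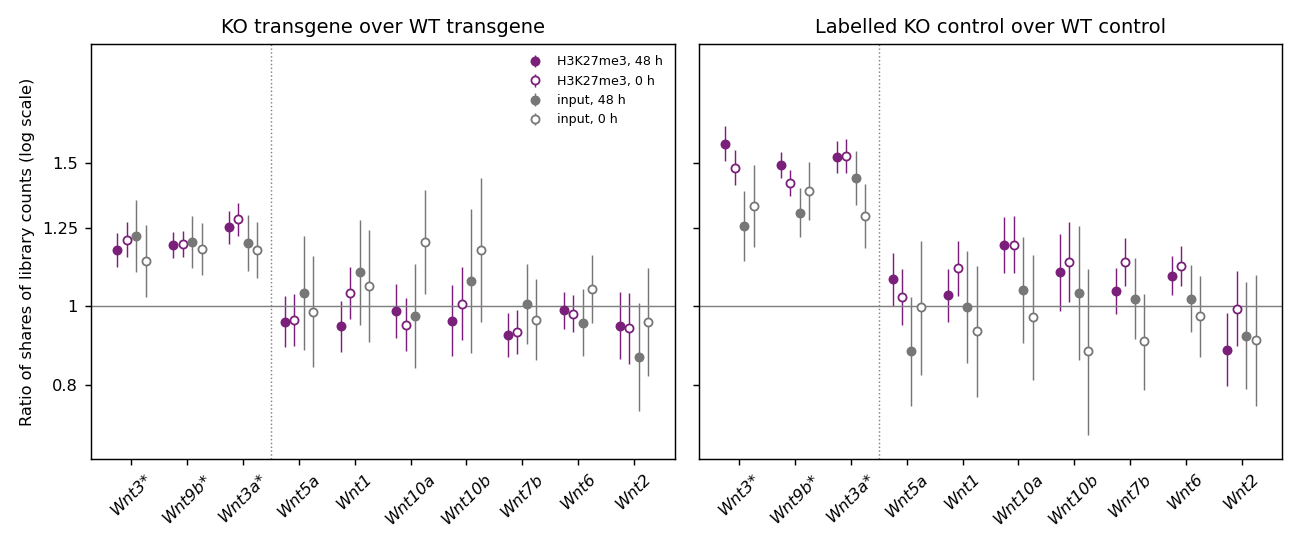
Share of library counts in KO over WT lines at the 10 Wnt ligand genes (x axis; genes on chromosome 11, marked *, left of the dotted line) on a log y axis, with H3K27me3 in purple and input in grey, filled at 48 h and open at 0 h; bars are 95% exact binomial intervals. In both panels the 3 genes on chromosome 11 lie above 1 in H3K27me3 and in input, and the H3K27me3 points are higher for the line labelled KO control over WT control (1.42 to 1.59) than for KO transgene over WT transgene (1.17 to 1.28).

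Transgene lines were compared with control lines over both backgrounds, again with 2 lines at 2 times on either side. The edgeR test called 0 of 10 genes, where 1.38% of gene regions were called; 3 of 10 had an unadjusted p under 0.05, and DESeq2 and limma-voom called 0. Of single peaks 0 of 19 were called (edgeR; 6 of 19 with an unadjusted p under 0.05), where 0.0748% of all peaks were called. The lowest differences were at the genes on chromosome 11, with -0.12 ± 0.04 at Wnt3a (adjusted p = 0.11), -0.11 ± 0.05 at Wnt3 (adjusted p = 0.307) and -0.09 ± 0.04 at Wnt9b (adjusted p = 0.311). Their input differences were -0.11 ± 0.04, -0.07 ± 0.04 and -0.12 ± 0.03, with 0 of 10 called in input, where 0.263% of regions were called. The other 7 genes lay between 0.01 at Wnt6 and 0.09 at Wnt10b. With an offset per library that follows the ratio over input, or with a background by transgene term in the model, Wnt3, Wnt3a and Wnt9b were called lower in the transgene lines. Leaving out any one of the 4 WT libraries moved the count to 1 or 2, with Wnt3a called each time and Wnt3 also without the WT control library at 48 h.

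The 2 backgrounds differed in this comparison, and a term for that difference was added after the data were seen. The term treats both times of a line as independent, so its p-values are too small where lines and not libraries are the unit. In the WT background the transgene line had a higher H3K27me3 share than the control line at all 10 genes and both times, with ratios between 1.02 and 1.16. In the KO background the ratio of the KO transgene line over the line labelled KO control lay between 0.821 and 0.863 at the 3 genes on chromosome 11 and between 0.914 and 1.13 at the other 7. The difference between backgrounds was called at 6 of 10 genes, in each a lower ratio of transgene over control line in KO (edgeR), where 3.45% of regions were called lower and 0.621% higher. On chromosome 11 it was -0.38 ± 0.04 at Wnt3 (adjusted p = 6.66e-18), -0.29 ± 0.04 at Wnt3a (adjusted p = 4.91e-11) and -0.30 ± 0.03 at Wnt9b (adjusted p = 3.37e-19).

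Elsewhere the called genes were Wnt10a (-0.31 ± 0.06, adjusted p = 2.31e-05), Wnt7b (-0.25 ± 0.05, adjusted p = 0.00015) and Wnt6 (-0.18 ± 0.04, adjusted p = 0.00193; edgeR). At Wnt7b the share was 0.984 and 0.951 in the KO transgene line over the line labelled KO control at 48 h and 0 h, and 1.11 and 1.16 in the WT transgene over the WT control line. All 4 values at Wnt2 lay between 0.971 and 1.13, and its term was -0.00107 ± 0.07. In input the term was called at 0 of 10 genes (edgeR; 2 of 10 with an unadjusted p under 0.05), where 0.148% of regions were called, and at the genes on chromosome 11 it was -0.13 ± 0.08 for Wnt3, -0.22 ± 0.06 for Wnt3a and -0.18 ± 0.06 for Wnt9b.

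The strongest peaks moved with this difference. At the top 1% of peaks the H3K27me3 share was 0.979 and 0.968 in the KO transgene line over the line labelled KO control at 48 h and 0 h, and 1.07 and 1.06 in the WT transgene over the WT control line; pulldown strength and the mark itself cannot be told apart. With an offset that follows the ratio over input, 5 of the 6 genes were called, all but Wnt6, with smaller differences between -0.24 at Wnt3 and -0.17 at Wnt7b. With the input count as an offset 0 of 10 were called. The differences then were -0.38 ± 0.11 at Wnt10a, -0.25 ± 0.09 at Wnt7b and -0.16 ± 0.08 at Wnt6, near those above but with larger SEs, and -0.22 ± 0.08 at Wnt3, -0.09 ± 0.06 at Wnt9b and -0.06 ± 0.07 at Wnt3a. DESeq2 called 3 of the 5 genes to which it gave an adjusted p, and at Wnt7b and Wnt6 it gave -0.24 and -0.18 without a call. Each line is a single line, so a difference between lines and a difference between genotypes or transgenes cannot be told apart.

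**Figure D5:**
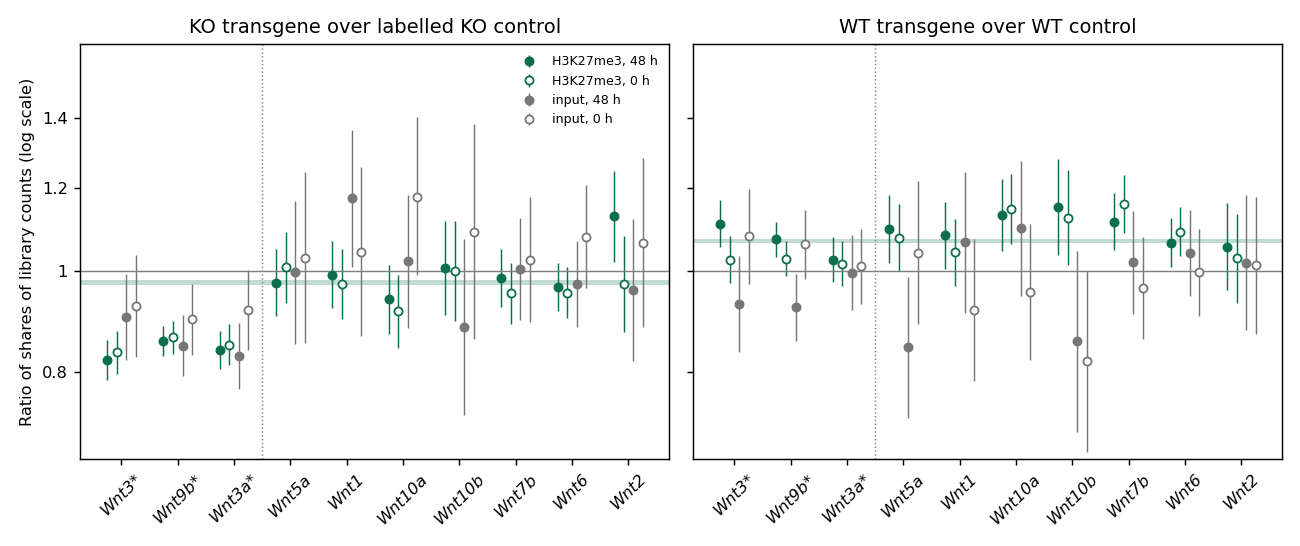
Share of library counts in transgene over control lines at the 10 Wnt ligand genes (x axis; genes on chromosome 11, marked *, left of the dotted line) on a log y axis, with H3K27me3 in green and input in grey, filled at 48 h and open at 0 h; bars are 95% exact binomial intervals and the green band is the H3K27me3 ratio at the top 1% of peaks at both times. All H3K27me3 points in the WT panel lie above 1, and in the KO panel the 3 genes on chromosome 11 lie between 0.821 and 0.863.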

How the data were processed

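H3K27me3 and input were measured by ChIP-seq in 16 libraries, after formaldehyde fixation and sonication, per the labels' protocols. The deposited table held raw counts, one whole number for each consensus peak in each library. The deposited peak list gave, as the authors' values per peak, a score, a fold enrichment ratio and −log10 p- and q-values; the fold is used only to describe peaks. The submitters' processing notes name mm10, featureCounts, MACS2 2.2.71, BWA 0.7.17-r1188 and DESeq2 1.26.0, without role or order. The libraries behind the peak call are not stated in any source used here. Summed wide peaks cannot show changes narrower than a peak.

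Counts were summed per gene over peaks overlapping its RefSeq GRCm38.p6 span ± 2000 bp (protein-coding and lncRNA genes, 18362 regions for 20257 genes; genes with the same peaks share a region). The span table holds no exons, so exonic position is not given. Tests were edgeR 4.0.16 quasi-likelihood F tests (R 4.3.3) across all regions or peaks with filterByExpr and Benjamini-Hochberg adjustment at 0.05, on TMM factors or, against input, on total counts in all consensus peaks with the condition as block. Time used the line as block (3 residual degrees of freedom), induction a transgene by time term (2), and background and transgene an additive model with time (4). edgeR moderates the spread of each region towards one pooled over regions. For H3K27me3 over time and for the difference between backgrounds it used the pooled spread alone (infinite prior degrees of freedom). The same models were run on input. Log2 values are ± SE of the fit. Tests were checked on simulated counts drawn independently per library, with planted changes and no spread between lines, copy change or pulldown difference. That check does not cover such effects. DESeq2 1.42.0, limma-voom (limma 3.58.1), other scalings, offsets, filters, windows and left-out libraries were the alternatives. The term for the difference between backgrounds was added after the data were seen.

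All 10 genes are described, with every peak counted; peaks named singly are each gene's highest and those past the threshold, and list genes those called (at most 5 per list) or highest or lowest of their list. Other peaks were named after their values were seen. Members and lists were chosen with earlier results of these data known.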

Additional observations from a re-analysis of the deposited data

Results flagged for a closer look

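Among the 60 sets of 4 libraries examined per gene (KO, WT, transgene, control, 48 h and 0 h), 4 held a library far from the other 3 in H3K27me3 over input, and chance gives about 1 in 20. The WT control library at 48 h was low at Wnt5a (1.68, against 2.03 to 2.09 in the other control libraries) and at Wnt9b (1.56, against 1.77 to 1.81 in the other control libraries and 1.79 to 1.82 in the other 48 h libraries). The WT transgene library at 0 h was high at Wnt10a (1.87, against 1.55 to 1.59 in the other WT libraries).

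The ratio of transgene over control line differed between the KO and WT pairs of lines at 6 genes in the edgeR test of that difference. It was lower in KO by a log2 value of -0.38 at Wnt3, -0.29 at Wnt3a, -0.18 at Wnt6, -0.25 at Wnt7b, -0.30 at Wnt9b and -0.31 at Wnt10a. Each line is a single line whose times the test treats as independent, so a difference among lines and an effect of the transgene cannot be told apart. The WT transgene line was above the WT control line at 6 of 6 of these genes at both times.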

How the results depend on the processing

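Of 128 counts recomputed under alternatives, 117 stayed within 1.5 times the reported count and 11 moved. For the KO and WT backgrounds, the count of genes called was 0 with input as an offset and 5 with a background by transgene term (Wnt6 and Wnt10a added), against 3. For the transgene it was 3 with an offset that follows the ratio over input and 3 with the background by transgene term, against 0. For the difference between backgrounds it was 3 with DESeq2 and 0 with input as an offset, against 6; the differences at Wnt6, Wnt7b and Wnt10a stayed near their size with the input offset, with larger SEs. Without 1 library at a time, the counts were 0 for time, 0 for induction, 10 over input, 3 to 4 for background, 0 to 2 for transgene, 0 to 1 for background relative to input and 5 to 6 for the difference between backgrounds. The cause of the other moves was not tested. Uncalled single-gene values changed sign 30 times of 180 for induction, 22 of 150 for background relative to input, 14 of 200 for transgene, 9 of 200 for background, 9 of 125 for the difference between backgrounds and 6 of 188 for time. All 18362 regions passed the low-count filter in the H3K27me3 models, so leaving it out changed nothing there. No paired analysis was possible because every group holds replicate 1 alone, so replicate numbers pair nothing; pairing by line (time) and by condition (over input) was part of the reported models. Input libraries were shallower than H3K27me3 libraries, and with 109 to 233 input counts Wnt10b sets the limit of the ratios over input.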
